A study of Mus musculus with 16 samples.

Results

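The 9 genes described here encode adrenergic receptors (Adrb1, Adra1a, Adra1b), a receptor kinase (Grk5), adenylyl cyclases (Adcy5, Adcy6) and cyclic nucleotide phosphodiesterases (Pde3a, Pde4b, Pde4d). They were taken by gene symbol from the 16 deposited count tables, where each of the 9 was present among 55278 symbols, and all 9 passed the filter on low counts. The lowest estimated count of any of them in any library was 433, for Adra1a. RNA came from the hearts of males on a C57BL/6J background, 8 to 12 weeks old, in 4 groups of 4 libraries: PPARα-deficient mice given LPS, Ppara-Flox mice given LPS, PPARα-deficient mice given PBS and Ppara-Flox mice given PBS. PPARα-deficient mice lacked the fatty acid receptor PPARα in cardiomyocytes, and Ppara-Flox mice carried floxed Ppara alleles without that deletion. LPS (lipopolysaccharide, a bacterial endotoxin) was injected into the peritoneum at 5 mg/kg in PBS (phosphate-buffered saline), control mice received PBS alone, and hearts were taken after 12 h. The labels do not name the Cre line, and no group carried Cre without the deletion, so effects of the deletion and of Cre cannot be told apart in the genotype comparisons.

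In the heart, noradrenaline and adrenaline bind β-adrenergic receptors, which act through the stimulatory G protein on adenylyl cyclase to make cyclic AMP. Cyclic AMP activates protein kinase A, which phosphorylates calcium channels, phospholamban and sarcomere proteins and so raises the rate and force of contraction. Receptor kinases and arrestins switch the receptor off, and phosphodiesterases break cyclic AMP down. The α1-adrenergic receptors act through another G protein, on phospholipase C. A weakened response to catecholamines is a known feature of the heart in sepsis.

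Each library held 65569134 to 75436023 estimated counts. Ppara itself measured 4.25 to 11.9 CPM (counts relative to library size, scaled by TMM) in PPARα-deficient LPS hearts, 7.23 to 14.7 in Ppara-Flox LPS hearts, 11.4 to 17.6 in PPARα-deficient PBS hearts and 37.4 to 59.3 in Ppara-Flox PBS hearts. The label text on extraction names islets, but Ins1, Ins2 and Gcg had 0 counts in every library and the cardiomyocyte gene Myh6 was at least 17240 CPM in each. On the first principal component of the 1000 most variable genes 2 LPS libraries lay nearer to the PBS libraries than the other 6 did, PPARα-deficient LPS replicate 4 and Ppara-Flox LPS replicate 3. Among PBS libraries PPARα-deficient replicate 4 lay nearest to the LPS libraries, at -40.9, with replicate 3 of that group next at -47.8. Results that change without both of the LPS libraries named are given with and without them. The numbers in the column headers were all higher for LPS than for PBS libraries, so treatment and numbering cannot be told apart. Among LPS libraries, Ppara-Flox replicates 1 and 2 had the lowest numbers, 1739 and 1742, and all others ran from 1755 to 1769. Genotype and numbering are therefore partly mixed under LPS.

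LPS lowered the transcripts of both α1 receptors and both cyclases and raised Grk5 and Pde4b in hearts of each genotype. In PPARα-deficient hearts 2 of the 9 genes rose (Grk5, Pde4b) and 5 fell (Adra1a, Adra1b, Adcy5, Adcy6, Pde3a) at an adjusted p under 0.05, while over all 18713 genes tested 37.7% were called (19.4% higher, 18.3% lower). In Ppara-Flox hearts 2 rose (Grk5, Pde4b) and 5 fell (Adrb1, Adra1a, Adra1b, Adcy5, Adcy6), against 39.3% of all genes (20.2% higher, 19.1% lower). The median log2 fold change of the 9 was -0.33 in PPARα-deficient and -0.55 in Ppara-Flox hearts, where the median of all genes was 0.01 in both. LPS and PBS libraries did not overlap for 6 of the 9 genes in either genotype, against 37.9% of all genes in PPARα-deficient and 37.6% in Ppara-Flox hearts. These are bulk samples, in which fewer cells of a type and less RNA per cell cannot be told apart. Here and below, fold changes are log2 values from edgeR's quasi-likelihood test, each with its SE (standard error, 4 libraries per group), and adjusted p-values are Benjamini-Hochberg values over all genes.

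**Figure D1:**
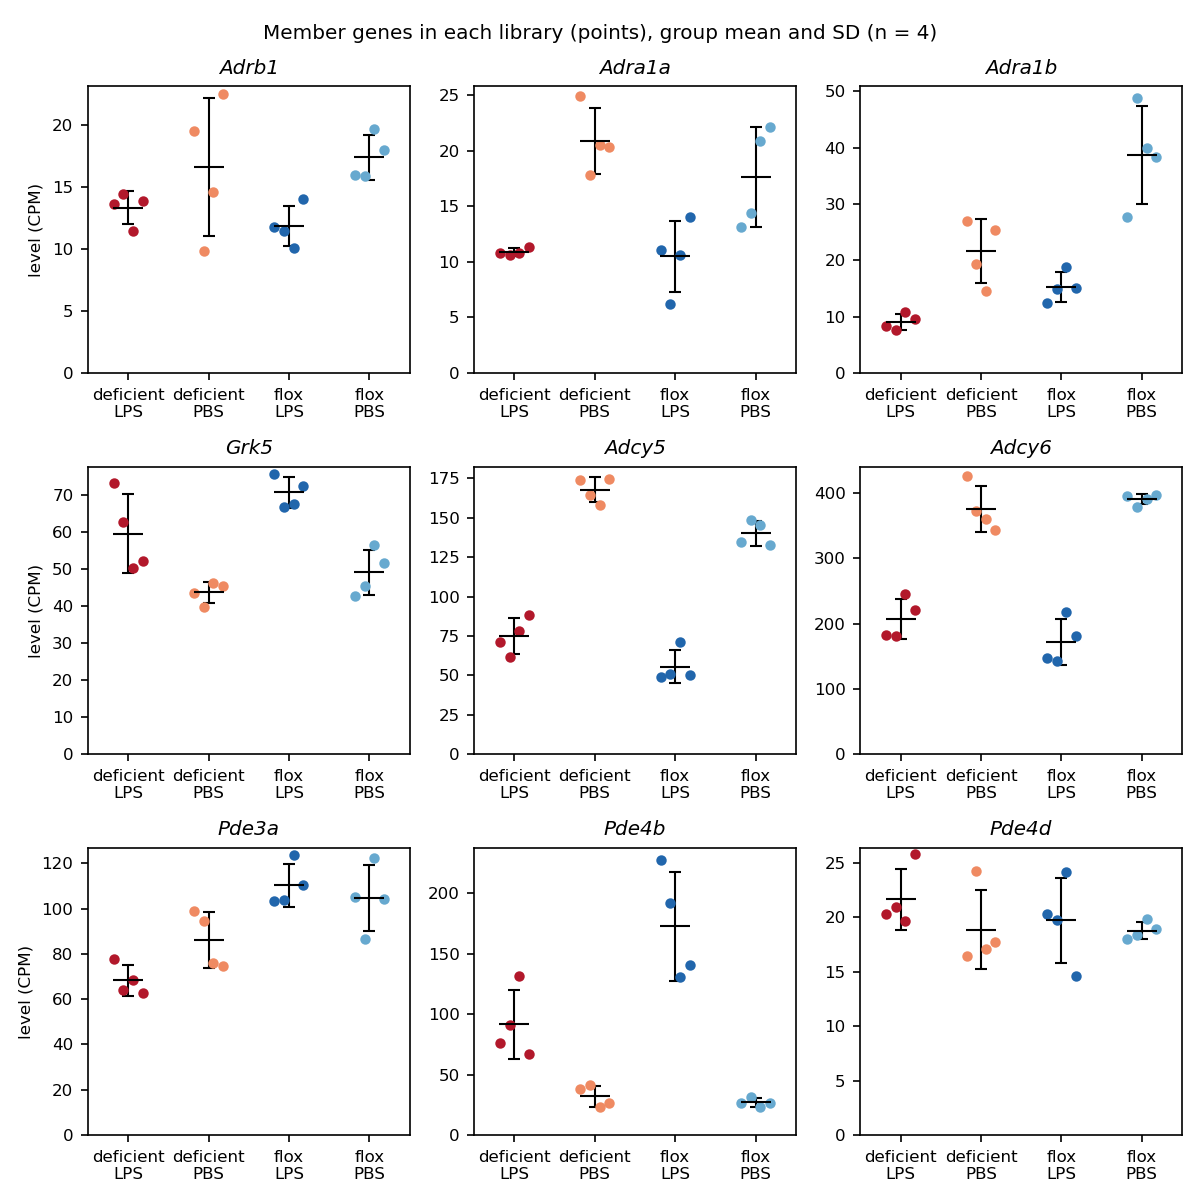
Level of each of the 9 genes (CPM, linear axis from 0) in each library (points) of the 4 groups, with group mean and SD as bars (n = 4). Adcy5, Adcy6 and Adra1b are lower and Pde4b is higher in every LPS library than in any PBS library of the same genotype.

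Adrb1 encodes the β1-adrenergic receptor, the main catecholamine receptor of the cardiomyocyte (GRCm38 chromosome 19, 56722199 to 56733113, plus strand, protein coding). In PPARα-deficient hearts it measured 13.6, 14.4, 11.5 and 13.9 CPM after LPS, against 19.5, 9.81, 14.6 and 22.5 CPM after PBS. Ppara-Flox hearts had 11.8, 11.5, 10.1 and 14.04 CPM after LPS, against 15.99, 15.9, 19.7 and 17.97 CPM after PBS. The Ppara-Flox groups did not overlap, whereas the 4 PPARα-deficient PBS libraries were spread on either side of the LPS libraries. Adrb1 fell 1.47-fold in Ppara-Flox hearts (-0.55 ± 0.19 SE, adjusted p = 0.0299), a call lost without any 1 of 5 libraries (Ppara-Flox LPS replicates 1, 2 and 3 and PBS replicates 3 and 4) and without the 2 LPS libraries that stood apart, with adjusted p from 0.00536 to 0.0903 over the alternatives. In PPARα-deficient hearts the log2 fold change was -0.32 ± 0.19 SE (adjusted p = 0.217), and leaving out replicate 2 of the PPARα-deficient PBS group, its lowest library, gave -0.50 with adjusted p = 0.0172. Over the alternatives tried, adjusted p ran from 0.0172 to 0.626 there.

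Adra1a and Adra1b encode the α1A- and α1B-adrenergic receptors, both of which cardiomyocytes express and which couple to phospholipase C. Adra1b (chromosome 11, 43774606 to 43901210, minus strand, protein coding) measured 8.38, 7.63, 10.8 and 9.53 CPM in PPARα-deficient LPS hearts, against 27.1, 19.5, 14.7 and 25.4 CPM in PPARα-deficient PBS hearts. It measured 12.4, 14.98, 18.8 and 15.1 CPM in Ppara-Flox LPS hearts, against 27.7, 48.9, 40.0 and 38.3 CPM in Ppara-Flox PBS hearts. LPS libraries lay below PBS libraries in both genotypes without overlap. The decrease was 2.38-fold in PPARα-deficient (-1.25 ± 0.20 SE, adjusted p = 0.000103) and 2.53-fold in Ppara-Flox hearts (-1.34 ± 0.20 SE, adjusted p = 4.85e-05).

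Adra1a (chromosome 14, 66635251 to 66771168, plus strand, protein coding) measured 10.8, 10.6, 10.8 and 11.4 CPM in PPARα-deficient LPS hearts, against 24.9, 17.8, 20.5 and 20.3 CPM in PPARα-deficient PBS hearts. In Ppara-Flox hearts the values were 11.0, 6.21, 10.6 and 14.1 CPM after LPS, against 13.2, 14.4, 20.8 and 22.1 CPM after PBS. The PPARα-deficient groups were separate, and the Ppara-Flox groups overlapped through LPS replicate 4 and PBS replicate 1. Adra1a fell 1.92-fold in PPARα-deficient (-0.94 ± 0.21 SE, adjusted p = 0.00178) and 1.68-fold in Ppara-Flox hearts (-0.75 ± 0.21 SE, adjusted p = 0.00825).

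Grk5 encodes G protein-coupled receptor kinase 5, which phosphorylates agonist-bound receptors and so favours arrestin binding (chromosome 19, 60889749 to 61095968, plus strand, protein coding). It measured 73.4, 62.7, 50.3 and 52.2 CPM in PPARα-deficient LPS hearts, against 43.6, 39.9, 46.2 and 45.5 CPM in PPARα-deficient PBS hearts. Ppara-Flox hearts had 75.9, 66.8, 67.8 and 72.7 CPM after LPS, against 42.8, 45.6, 56.5 and 51.8 CPM after PBS. Every LPS library was above every PBS library of its genotype. The rise was 1.36-fold in PPARα-deficient (0.45 ± 0.12 SE, adjusted p = 0.00578) and 1.44-fold in Ppara-Flox hearts (0.53 ± 0.12 SE, adjusted p = 0.00165). The protein-coding gene Zfp950 lies within the Grk5 locus on the opposite strand, with no shared exon.

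Adcy5 and Adcy6 encode the adenylyl cyclases regarded as the main forms of the adult cardiomyocyte. Adcy6 (chromosome 15, 98589973 to 98610076, minus strand, protein coding) measured 181.7, 180.6, 244.5 and 220.7 CPM in PPARα-deficient LPS hearts, against 425.5, 372.2, 359.5 and 344.0 CPM in PPARα-deficient PBS hearts. Ppara-Flox hearts had 147.2, 142.2, 217.3 and 181.3 CPM after LPS, against 395.4, 379.1, 390.7 and 397.4 CPM after PBS. The PBS libraries of Ppara-Flox hearts were close together and far above all LPS libraries. Adcy6 fell 1.81-fold in PPARα-deficient (-0.86 ± 0.13 SE, adjusted p = 5.25e-05) and 2.27-fold in Ppara-Flox hearts (-1.18 ± 0.13 SE, adjusted p = 1.95e-06).

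Adcy5 (chromosome 16, 35154877 to 35305738, plus strand, protein coding) measured 70.9, 61.9, 78.0 and 88.5 CPM in PPARα-deficient LPS hearts, against 173.9, 164.2, 158.3 and 174.7 CPM in PPARα-deficient PBS hearts. Ppara-Flox hearts had 49.0, 51.1, 70.9 and 50.5 CPM after LPS, against 134.6, 148.5, 145.3 and 132.5 CPM after PBS. No LPS library reached a PBS library, and 1 Ppara-Flox LPS library, replicate 3, lay apart from the other 3 of its group. Adcy5 fell 2.24-fold in PPARα-deficient (-1.17 ± 0.12 SE, adjusted p = 1.28e-06) and 2.53-fold in Ppara-Flox hearts (-1.34 ± 0.12 SE, adjusted p = 2.62e-07). Without replicate 3 the Ppara-Flox value was -1.50.

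Pde4b encodes a cyclic AMP-specific phosphodiesterase, an enzyme also known for its induction in leukocytes exposed to LPS (chromosome 4, 102087543 to 102607259, plus strand, protein coding). It measured 76.5, 91.5, 131.7 and 66.8 CPM in PPARα-deficient LPS hearts, against 37.9, 41.1, 23.3 and 26.4 CPM in PPARα-deficient PBS hearts. In Ppara-Flox hearts it measured 227.4, 192.1, 131.0 and 140.9 CPM after LPS, against 26.8, 31.8, 23.1 and 26.8 CPM after PBS. All LPS libraries stood above all PBS libraries. Pde4b rose 2.85-fold in PPARα-deficient (1.51 ± 0.23 SE, adjusted p = 6.61e-05) and 6.37-fold in Ppara-Flox hearts (2.67 ± 0.24 SE, adjusted p = 2.38e-07), the largest change among the 9 genes in either genotype. Summed neutrophil markers (S100a8, S100a9, Ly6g, Cxcr2, Csf3r) rose with LPS as well, and overlapped between genotypes under each treatment. They measured 23.2 to 24.7 CPM in PPARα-deficient LPS hearts and 17.2 to 40.6 CPM in Ppara-Flox LPS hearts. After PBS they measured 1.27 to 7.93 CPM in PPARα-deficient and 2.05 to 2.95 CPM in Ppara-Flox hearts. In both genotypes 3 of the 4 tested markers rose with LPS, and Ly6g averaged 0.147 CPM in PPARα-deficient LPS hearts and 0.0880 CPM in Ppara-Flox LPS hearts, with 0 counts in each PBS library. Of 5 macrophage markers 1 rose (Cd68) and 2 fell (Csf1r, Mrc1) in each genotype, and their sum was 84.3 to 120.5 CPM in PPARα-deficient LPS hearts against 126.1 to 141.8 CPM in PPARα-deficient PBS hearts, and 77.1 to 97.9 CPM in Ppara-Flox LPS hearts against 102.1 to 133.9 CPM in Ppara-Flox PBS hearts. The part of either cell type in the Pde4b change was not tested.

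Pde4b has several start sites, and the gene-level counts do not say which were used. RefSeq on GRCm38.p6 gave 4 promoters for it, each 250 bases before to 50 after a start, and 2 of the 4 held a match to the κB consensus, the sequence class bound by NF-κB. That consensus was found on either strand in 8.46% of all 32851 promoters of 300 bases. The 2 promoters with a match are shown because Pde4b rose most, with the match in capitals, plus strand, 5′ to 3′.
Pde4b promoter chr4:102569810-102570109: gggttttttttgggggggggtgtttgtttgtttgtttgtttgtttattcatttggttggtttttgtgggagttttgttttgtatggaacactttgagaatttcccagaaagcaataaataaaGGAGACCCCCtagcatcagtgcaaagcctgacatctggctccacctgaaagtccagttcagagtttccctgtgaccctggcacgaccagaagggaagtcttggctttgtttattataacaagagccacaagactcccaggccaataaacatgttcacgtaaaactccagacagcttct
Pde4b promoter chr4:102587308-102587607: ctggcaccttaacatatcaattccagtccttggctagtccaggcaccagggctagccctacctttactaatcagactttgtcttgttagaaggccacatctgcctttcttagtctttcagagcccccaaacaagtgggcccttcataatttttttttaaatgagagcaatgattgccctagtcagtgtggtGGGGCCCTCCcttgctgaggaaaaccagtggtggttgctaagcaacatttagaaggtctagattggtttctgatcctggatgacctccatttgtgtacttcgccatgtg

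The table held promoters for 6 of the 9 genes, 10 in all, and no κB match was found in the 6 promoters of Adra1b, Pde4d, Adcy5, Adrb1 and Grk5. The cyclic AMP response element TGACGTCA, present in 1.79% of all promoters on either strand, was in none of the 10. Its half-site TGACG, which overlaps every full element and was in 20.8% of all promoters, was in 1 further Pde4b promoter and in that of Adrb1. For 10 promoters that is near the share of all promoters. The PPAR response element, here the direct repeat with 1 spacer base, was in 0.0396% of all promoters on either strand and in none of the 10. The Adrb1 promoter is shown for its half-site, in capitals, since Adrb1 feeds the cyclic AMP pathway. A match is a description of these letters and not a measured binding site.
Adrb1 promoter chr19:56721867-56722166: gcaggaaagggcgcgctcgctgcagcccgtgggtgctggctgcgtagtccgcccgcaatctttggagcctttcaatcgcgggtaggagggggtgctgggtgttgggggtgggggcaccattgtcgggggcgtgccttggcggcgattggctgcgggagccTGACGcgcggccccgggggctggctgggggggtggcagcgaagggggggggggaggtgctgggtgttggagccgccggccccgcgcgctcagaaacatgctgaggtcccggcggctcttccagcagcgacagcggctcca

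Pde3a encodes a cyclic GMP-inhibited phosphodiesterase that acts at the sarcoplasmic reticulum, the target of milrinone-type drugs (chromosome 6, 141249269 to 141507448, plus strand, protein coding). It measured 77.9, 64.2, 68.4 and 62.8 CPM in PPARα-deficient LPS hearts, against 99.2, 94.5, 76.2 and 74.6 CPM in PPARα-deficient PBS hearts. In Ppara-Flox hearts it measured 103.5, 103.7, 123.7 and 110.6 CPM after LPS, against 105.2, 86.7, 122.4 and 104.3 CPM after PBS. The groups overlapped in both genotypes. Pde3a fell 1.26-fold in PPARα-deficient hearts (-0.33 ± 0.12 SE, adjusted p = 0.0342), a call lost without any 1 of 5 libraries (PPARα-deficient LPS replicates 2, 3 and 4 and PBS replicates 1 and 2) and without the 2 LPS libraries that stood apart, with adjusted p from 0.0183 to 0.12 over the alternatives. In Ppara-Flox hearts its log2 fold change was 0.08 ± 0.12 SE (adjusted p = 0.651). An annotated antisense gene, Gm28523, overlaps its exons with 1815 estimated counts over the 16 libraries, and the strand setting of the counting is not given in the sources used here.

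Pde4d encodes another cyclic AMP-specific phosphodiesterase, known to associate with the cardiac ryanodine receptor (chromosome 13, 108449948 to 109953461, plus strand, protein coding). It measured 20.3, 21.0, 19.7 and 25.8 CPM in PPARα-deficient LPS hearts, against 16.4, 24.3, 17.1 and 17.7 CPM in PPARα-deficient PBS hearts. In Ppara-Flox hearts it measured 20.3, 19.7, 24.2 and 14.6 CPM after LPS, against 17.98, 18.4, 19.8 and 18.9 CPM after PBS. The groups overlapped in both genotypes. Its log2 fold change was 0.20 ± 0.15 SE in PPARα-deficient (adjusted p = 0.314) and 0.07 ± 0.15 SE in Ppara-Flox hearts (adjusted p = 0.75).

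**Figure D2:**
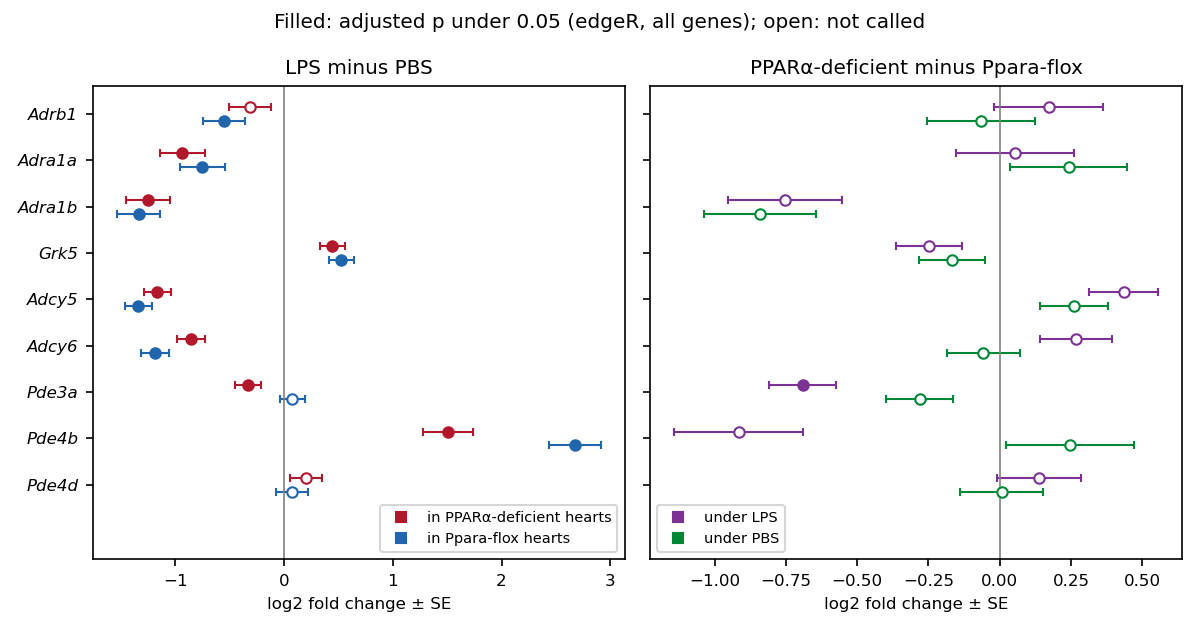
Log2 fold change with SE (edgeR) of each gene for LPS minus PBS in each genotype (left) and for PPARα-deficient minus Ppara-Flox under each treatment (right). Filled points passed an adjusted p of 0.05 over all genes. Pde4b rose in both genotypes, and Pde3a under LPS is the only filled point among the genotype comparisons.

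Between genotypes after LPS, Pde3a was the gene of the 9 that passed, at 0.619 times its Ppara-Flox level in PPARα-deficient hearts. It averaged 68.3 ± 6.82 CPM in PPARα-deficient LPS hearts and 110.3 ± 9.47 CPM in Ppara-Flox LPS hearts (SD, n = 4 each), and every PPARα-deficient library was below every Ppara-Flox library (-0.69 ± 0.12 SE, adjusted p = 0.00452). Without the 2 LPS libraries that stood apart it was -0.59 with adjusted p = 0.0585, and adjusted p ran from 9.82e-06 to 0.0585 over the alternatives. By edgeR 1 of the 9 was thus lower and 0 higher, against 1.23% of all genes (0.85% lower, 0.385% higher). With an unadjusted p under 0.05 there were 5 of the 9, against 9.13% of all genes. DESeq2 called 1 of the 9 higher and 3 lower, against 2.37% of all genes, and limma-voom called 2 lower, against 1.28%. The 2 genotypes did not overlap for 2 of the 9 genes, Pde3a and Adra1b, against 5.32% of all genes.

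Pde4b averaged 91.6 ± 28.6 CPM in PPARα-deficient LPS hearts and 172.8 ± 45.1 CPM in Ppara-Flox LPS hearts (SD, n = 4 each), a log2 fold change of -0.92 ± 0.23 SE with adjusted p = 0.0658. The groups touched, since PPARα-deficient replicate 3 at 131.7 CPM lay just above Ppara-Flox replicate 3 at 131.0 CPM. Without that PPARα-deficient library the log2 fold change was -1.14 with adjusted p = 0.016, and without that Ppara-Flox library it was -1.03 with adjusted p = 0.048. Over the alternatives adjusted p ran from 0.00485 to 0.22. Ppara-Flox LPS replicates 1 and 2, with the lowest header numbers, had 227.4 and 192.1 CPM of Pde4b, and replicates 3 and 4 had 131.0 and 140.9 CPM. Pde3a went the other way, at 103.5 and 103.7 CPM against 123.7 and 110.6 CPM. The part of the numbering in the genotype differences under LPS was not tested. Adcy5 averaged 74.8 ± 11.2 CPM in PPARα-deficient LPS hearts and 55.4 ± 10.4 CPM in Ppara-Flox LPS hearts (0.43 ± 0.12 SE, adjusted p = 0.115). Without Ppara-Flox LPS replicate 3 it was 0.58 with adjusted p = 0.00771, and without both libraries that stood apart 0.49 with adjusted p = 0.0206, in a range of 0.00771 to 0.405 over the alternatives. Under LPS the summed markers of 5 cardiomyocyte genes overlapped between genotypes, at 28790 to 32060 CPM in PPARα-deficient and 25740 to 30490 CPM in Ppara-Flox hearts, and 1 of the 5, Tnnt2, was called higher in PPARα-deficient hearts. The summed endothelial markers (Pecam1, Cdh5, Kdr, Tie1, Egfl7) did not overlap, at 721.4 to 748.3 CPM in PPARα-deficient LPS hearts and 791.0 to 874.4 CPM in Ppara-Flox LPS hearts. They were lower in PPARα-deficient hearts as Pde3a, Pde4b and Adra1b were, though none of the 5 was called. Under PBS the endothelial sums overlapped, at 788.6 to 957.3 CPM in PPARα-deficient and 850.9 to 921.1 CPM in Ppara-Flox hearts. Summed macrophage markers went the other way under LPS with overlap, averaging 102.6 CPM in PPARα-deficient and 83.2 CPM in Ppara-Flox hearts. The part of any of these cell types in the genotype differences was not tested.

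After PBS none of the 9 genes was called between genotypes by edgeR or limma-voom, against 0.433% of all genes (0.401% lower, 0.0321% higher), and limma-voom called 0.444% of all genes. An unadjusted p under 0.05 was found for 3 of the 9, against 5.57% of all genes, and DESeq2 called 1, Adra1b, against 0.979% of all genes. PPARα-deficient and Ppara-Flox PBS libraries did not overlap for 2 of the 9, Adra1b and Adcy5, against 3.99% of all genes. Adra1b averaged 21.6 ± 5.69 CPM in PPARα-deficient PBS hearts and 38.7 ± 8.71 CPM in Ppara-Flox PBS hearts (-0.84 ± 0.20 SE, adjusted p = 0.0954). Without Ppara-Flox PBS replicate 1, the lowest of its group, the value was -0.97 with adjusted p = 0.032, and DESeq2 gave 0.00575, in a range of 0.00575 to 0.328 over the alternatives. Adcy5 averaged 167.8 ± 7.92 CPM in PPARα-deficient PBS hearts and 140.2 ± 7.88 CPM in Ppara-Flox PBS hearts (0.26 ± 0.12 SE, adjusted p = 0.884). PBS libraries fall into 2 series of header numbers, replicates 1 and 2 in one and 3 and 4 in the other, in both genotypes. Within the lower series Adra1b averaged 23.3 CPM in PPARα-deficient and 38.3 CPM in Ppara-Flox hearts, and within the higher series 20.01 and 39.2 CPM in the same order. Pde3a differed between the series, at 96.8 CPM in PPARα-deficient and 95.9 CPM in Ppara-Flox hearts in the lower and at 75.4 and 113.4 CPM in the same order in the higher. With the series as a term its log2 fold change was -0.29 (adjusted p = 0.762), in a range of 0.499 to 1 over the alternatives.

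Adra1b showed a like difference after LPS, at 9.09 ± 1.39 CPM in PPARα-deficient and 15.3 ± 2.61 CPM in Ppara-Flox LPS hearts (SD, n = 4 each, -0.75 ± 0.20 SE, adjusted p = 0.0942). The deficiency effect averaged over PBS and LPS was therefore fitted as well, a comparison chosen after these values were seen. In it Adra1b (-0.80 ± 0.14 SE, adjusted p = 0.0043) and Pde3a (-0.49 ± 0.08 SE, adjusted p = 0.00355) fell and none of the 9 rose, against 1.4% of all genes (1.03% lower, 0.369% higher). Under PBS the Pde3a difference was seen in the higher number series and not in the lower, as given above. DESeq2 and limma-voom each called 2 of the 9 lower and 1 higher, Adcy5, against 2.36% and 1.32% of all genes. Adcy5 had 0.35 ± 0.08 SE with adjusted p = 0.0554, and 0.37 with adjusted p = 0.00407 without the 2 LPS libraries that stood apart, in a range of 0.00317 to 0.17 over the alternatives. Adra1b and Pde3a were called in all 27 alternatives run for this comparison, with adjusted p up to 0.0233 for Adra1b and 0.0244 for Pde3a. These alternatives reuse the libraries whose values led to the comparison, so they are no independent test of it. In the main edgeR fit the planned comparisons called Adra1b under neither treatment and Pde3a only under LPS.

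The interaction (the change with LPS in PPARα-deficient hearts, less the change in Ppara-Flox hearts) was called for 0 of the 9 genes by edgeR, DESeq2 or limma-voom, where edgeR and limma-voom called 0% and DESeq2 0.294% of all genes. An unadjusted p under 0.05 was found for 2 of the 9, against 5.74% of all genes. Pde4b had the largest value, -1.16 ± 0.32 SE (adjusted p = 0.547), with a range of -1.47 to -1.0 over the alternatives and adjusted p of 0.0816 to 0.774. Pde3a had -0.41 ± 0.17 SE (adjusted p = 0.815). For the other 7 genes the interaction lay between -0.19 and 0.32 with an SE of 0.16 to 0.29.

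Levels of different genes were compared per kilobase of annotated exon. In Ppara-Flox PBS hearts Adcy6 was highest at 57.6 ± 1.21 CPM per kilobase, followed by Adcy5 at 19.5 ± 1.10 and Adra1b at 11.5 ± 2.58 CPM per kilobase (SD, n = 4). Pde3a followed at 8.22 ± 1.15, Grk5 at 6.97 ± 0.87, Adrb1 at 5.14 ± 0.54, Pde4b at 2.57 ± 0.34, Adra1a at 2.02 ± 0.52 and Pde4d at 1.56 ± 0.07 CPM per kilobase. The libraries of Adra1b and Pde3a overlapped, as did those of Pde3a and Grk5, of Pde4b and Adra1a and of Adra1a and Pde4d. In PPARα-deficient PBS hearts Adra1b, at 6.40 ± 1.68 CPM per kilobase, overlapped with Pde3a above it and Grk5 below it. In Ppara-Flox LPS hearts Pde4b stood second at 16.4 ± 4.28 CPM per kilobase, its highest library overlapping with Adcy6 at 25.4 ± 5.14. In PPARα-deficient LPS hearts Adcy6 led at 30.5 ± 4.61, and Adcy5 at 10.4 ± 1.56 overlapped with Pde4b at 8.68 ± 2.71 CPM per kilobase. Lengths are unions of all annotated exons, so genes with many isoforms such as Pde4d are set lower than their used transcripts would be.

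The balance within a family does not depend on how libraries are scaled. The log2 ratio of Pde4d to Pde4b per kilobase averaged -2.22 ± 0.57 in PPARα-deficient LPS hearts against -0.93 ± 0.33 in PPARα-deficient PBS hearts, and -3.30 ± 0.46 in Ppara-Flox LPS hearts against -0.71 ± 0.24 in Ppara-Flox PBS hearts (SD, n = 4 each). The groups did not overlap in either genotype (two-sided exact permutation test, p = 0.0286 for each, the smallest that 4 against 4 allows, and 0.0571 adjusted over 12 tests). Between genotypes after LPS the difference was 1.08; the libraries overlapped, PPARα-deficient replicate 3 being at -2.93 and Ppara-Flox replicate 3 at -2.62 (exact permutation p = 0.0571, adjusted 0.098).

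The log2 ratio of Adra1a to Adra1b averaged -1.10 ± 0.20 in PPARα-deficient LPS hearts and -1.96 ± 0.56 in Ppara-Flox LPS hearts, and -1.39 ± 0.35 in PPARα-deficient PBS hearts and -2.51 ± 0.43 in Ppara-Flox PBS hearts (SD, n = 4 each). Per kilobase Adra1b was thus the more abundant in all 4 groups. Its excess was smaller in PPARα-deficient hearts under each treatment, without overlap (exact permutation p = 0.0286 for each, adjusted 0.0571). In PPARα-deficient hearts the order rests on the exon lengths. There Adra1a and Adra1b averaged 10.9 and 9.09 CPM after LPS and 20.9 and 21.6 CPM after PBS. LPS against PBS gave differences of 0.29 and 0.55 in PPARα-deficient and Ppara-Flox hearts (exact permutation p = 0.2 and 0.229). The log2 ratio of Adcy5 to Adcy6 averaged -1.24 ± 0.13 in PPARα-deficient PBS hearts and -1.56 ± 0.11 in Ppara-Flox PBS hearts (exact permutation p = 0.0286, adjusted 0.0571). After LPS it averaged -1.55 ± 0.16 in PPARα-deficient hearts and -1.71 ± 0.15 in Ppara-Flox hearts, which overlapped (exact permutation p = 0.2). None of the 12 ratio tests passed 0.05 after adjustment.

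**Figure D3:**
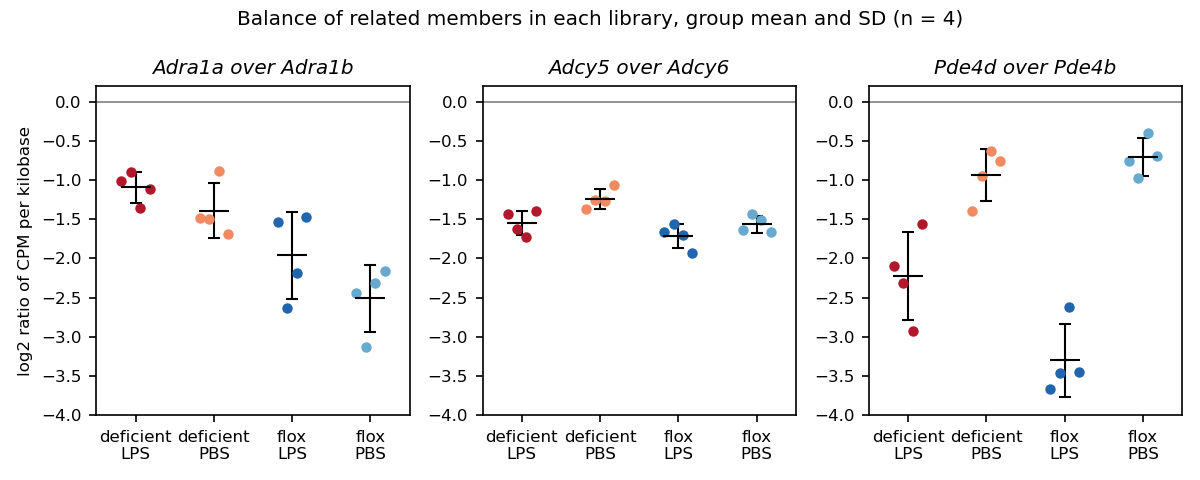
Log2 ratio of CPM per kilobase of related genes in each library (points), with group mean and SD as bars (n = 4). The ratio of Pde4d to Pde4b is lower in each LPS library than in any PBS library of the same genotype, and the ratio of Adra1a to Adra1b is higher in PPARα-deficient than in Ppara-Flox libraries under each treatment.

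Other genes of the pathway were read from 10 lists that hold 88 symbols of the files, 85 of them tested. In PPARα-deficient hearts LPS raised 10 and lowered 35 of the 85, against 19.4% of all genes higher and 18.3% lower, with a median log2 fold change of -0.41. In Ppara-Flox hearts it raised 6 and lowered 39, against 20.2% of all genes higher and 19.1% lower, with a median of -0.38. Between genotypes edgeR called 0 of the 85. Under LPS 16 of them had an unadjusted p under 0.05, against 9.13% of all genes, and DESeq2 and limma-voom each called 1 higher, Pln, against 2.37% and 1.28% of all genes called. Under PBS 7 had an unadjusted p under 0.05, against 5.57% of all genes, and DESeq2 and limma-voom called 0. In the average over treatments 10 did, against 8.97% of all genes, and DESeq2 called 1 lower (Ppp1r1a) and limma-voom 0. For the interaction 6 did, against 5.74% of all genes, and none was called by any of the 3 tools.

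Among receptors, their regulators and G proteins, 1 of the 4 tested further adrenergic receptors fell in both genotypes. This was the α1 receptor gene Adra1d (-0.95 ± 0.26 SE in PPARα-deficient and -1.35 ± 0.26 SE in Ppara-Flox hearts). Of 6 other receptor kinases and arrestins edgeR called 0 in PPARα-deficient hearts, as did limma-voom and DESeq2, and the unadjusted p was under 0.05 for 0 of them. In Ppara-Flox hearts 2 of the 6 fell, Grk4 (-1.06 ± 0.32 SE) and the arrestin gene Arrb2 (-0.48 ± 0.13 SE). Of 14 G protein and RGS genes 2 rose and 6 fell in each genotype. Beside these lists, 37.7% of all genes were called in PPARα-deficient and 39.3% in Ppara-Flox hearts. Rgs5, a brake on G protein signalling used as a pericyte marker, averaged 227.7 ± 16.5 CPM in PPARα-deficient LPS hearts and 527.6 ± 13.9 CPM in PPARα-deficient PBS hearts (-1.21 ± 0.08 SE), and 270.5 ± 26.1 CPM in Ppara-Flox LPS hearts and 540.7 ± 21.2 CPM in Ppara-Flox PBS hearts. Rgs3 fell as well (-1.05 ± 0.14 SE and -0.96 ± 0.14 SE in the same order). The 2 that rose were the inhibitory G protein genes Gnai2 and Gnai3, named after their values were seen (0.44 ± 0.08 SE and 0.48 ± 0.11 SE in PPARα-deficient hearts, 0.50 ± 0.08 SE and 0.53 ± 0.11 SE in Ppara-Flox hearts).

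Of 5 smooth muscle and pericyte markers 4 (Acta2, Myh11, Tagln, Kcnj8) were lower after LPS in both genotypes, as Rgs5 was. Pdgfrb was not called, at 83.2 CPM in PPARα-deficient LPS and 80.7 CPM in PPARα-deficient PBS hearts. In Ppara-Flox hearts Pdgfrb averaged 78.2 CPM after LPS and 82.35 CPM after PBS. The sum of the 5 was 138.2 to 191.7 CPM in PPARα-deficient LPS hearts, 147.0 to 157.4 CPM in Ppara-Flox LPS hearts, 195.3 to 246.7 CPM in PPARα-deficient PBS hearts and 212.1 to 311.2 CPM in Ppara-Flox PBS hearts, and its part in the Rgs5 change was not tested.

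Of 7 other adenylyl cyclases tested 3 fell and none rose in each genotype. Over all genes 37.7% were called in PPARα-deficient (18.3% lower) and 39.3% in Ppara-Flox hearts (19.1% lower). Adcy7, a cyclase of blood cells, averaged 5.07 ± 0.47 CPM in PPARα-deficient LPS hearts and 14.3 ± 2.35 CPM in PPARα-deficient PBS hearts (-1.49 ± 0.14 SE), with -1.45 ± 0.14 SE in Ppara-Flox hearts. Adcy1 fell by 1.09 ± 0.27 SE on the log2 scale in PPARα-deficient and by 1.12 ± 0.27 SE in Ppara-Flox hearts. Of 14 other phosphodiesterases 1 rose and 6 fell in each genotype. Pde7a, another cyclic AMP-specific form, averaged 11.5 ± 1.35 CPM in PPARα-deficient LPS hearts and 41.5 ± 9.16 CPM in PPARα-deficient PBS hearts (-1.85 ± 0.18 SE), with -2.12 ± 0.18 SE in Ppara-Flox hearts. Pde4a, of the same family as Pde4b, moved in the opposite direction to it, at 31.1 ± 6.98 CPM in PPARα-deficient LPS hearts and 86.2 ± 8.05 CPM in PPARα-deficient PBS hearts (-1.47 ± 0.15 SE), with -1.57 ± 0.15 SE in Ppara-Flox hearts.

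Downstream, of 15 genes of protein kinase A, its inhibitors and anchors, 2 rose and 8 fell in PPARα-deficient hearts. In Ppara-Flox hearts 2 rose and 9 fell. Of all genes 37.7% and 39.3% were called in the same order. Akap1, which anchors the kinase at mitochondria, averaged 61.0 ± 4.33 CPM in PPARα-deficient LPS hearts and 179.9 ± 7.50 CPM in PPARα-deficient PBS hearts (-1.56 ± 0.07 SE), with -1.67 ± 0.07 SE in Ppara-Flox hearts. Akap12, an anchor that also binds the β-adrenergic receptor complex, went the other way, at 463.0 ± 105.0 CPM in PPARα-deficient LPS hearts and 59.0 ± 12.3 CPM in PPARα-deficient PBS hearts (2.97 ± 0.16 SE, adjusted p = 1.77e-09), with 2.93 ± 0.16 SE in Ppara-Flox hearts. Among 5 other cyclic AMP effectors Rapgef4 (-0.94 ± 0.20 SE in PPARα-deficient and -0.96 ± 0.20 SE in Ppara-Flox hearts) and Bves (-0.65 ± 0.10 SE and -0.92 ± 0.10 SE in the same order) fell in both genotypes. Another 3 of the 5 rose in PPARα-deficient hearts and none rose in Ppara-Flox hearts, and none of the 5 was called in the interaction.

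Of 10 kinase substrates and phosphatase genes of cardiomyocytes 6 fell in PPARα-deficient and 7 in Ppara-Flox hearts and none rose. Over all genes 18.3% fell in PPARα-deficient and 19.1% in Ppara-Flox hearts. Ppp2r5a, a regulatory subunit of protein phosphatase 2A, fell in both (-0.78 ± 0.08 SE and -0.80 ± 0.08 SE in the same order), as did Mybpc3, for cardiac myosin-binding protein C (-0.77 ± 0.08 SE and -0.72 ± 0.08 SE), and Pln, for phospholamban (-0.70 ± 0.11 SE and -1.11 ± 0.11 SE). The summed cardiomyocyte markers (Myh6, Tnnt2, Actn2, Tnni3, Ryr2) were lower too, at 28790 to 32060 CPM in PPARα-deficient LPS hearts against 40910 to 47900 CPM in PPARα-deficient PBS hearts, and at 25740 to 30490 CPM in Ppara-Flox LPS hearts against 44690 to 49720 CPM in Ppara-Flox PBS hearts. Myh6 made up most of these sums, at 19480 CPM in PPARα-deficient LPS and 32950 CPM in PPARα-deficient PBS hearts. In Ppara-Flox hearts it averaged 19330 CPM after LPS and 35610 CPM after PBS. Tnni3 and Ryr2 are also among the 10 substrate and phosphatase genes. Of the 5 cardiomyocyte markers 3 fell in PPARα-deficient and 5 in Ppara-Flox hearts, and their part in the lower Adcy5, Adcy6 and α1-receptor transcripts was not tested. Of 8 genes of cyclic AMP-responsive transcription 1 rose and 2 fell in each genotype. That is near the share of all genes called, 37.7% in PPARα-deficient and 39.3% in Ppara-Flox hearts. The coactivator gene Crtc2 rose (0.54 ± 0.08 SE and 0.32 ± 0.08 SE in the same order), and its paralog Crtc3 (-0.49 ± 0.10 SE and -0.37 ± 0.10 SE) and the nuclear receptor gene Nr4a3 (-1.09 ± 0.35 SE and -1.78 ± 0.36 SE) fell. Of the receptors that oppose cyclic AMP, the adenosine A1 receptor gene Adora1 fell in both genotypes (-1.48 ± 0.28 SE and -1.36 ± 0.28 SE). The muscarinic receptor gene Chrm2 rose in PPARα-deficient hearts (0.70 ± 0.17 SE, adjusted p = 0.00305). Its Ppara-Flox value was 0.32 ± 0.17 SE (adjusted p = 0.148).

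**Figure D4:**
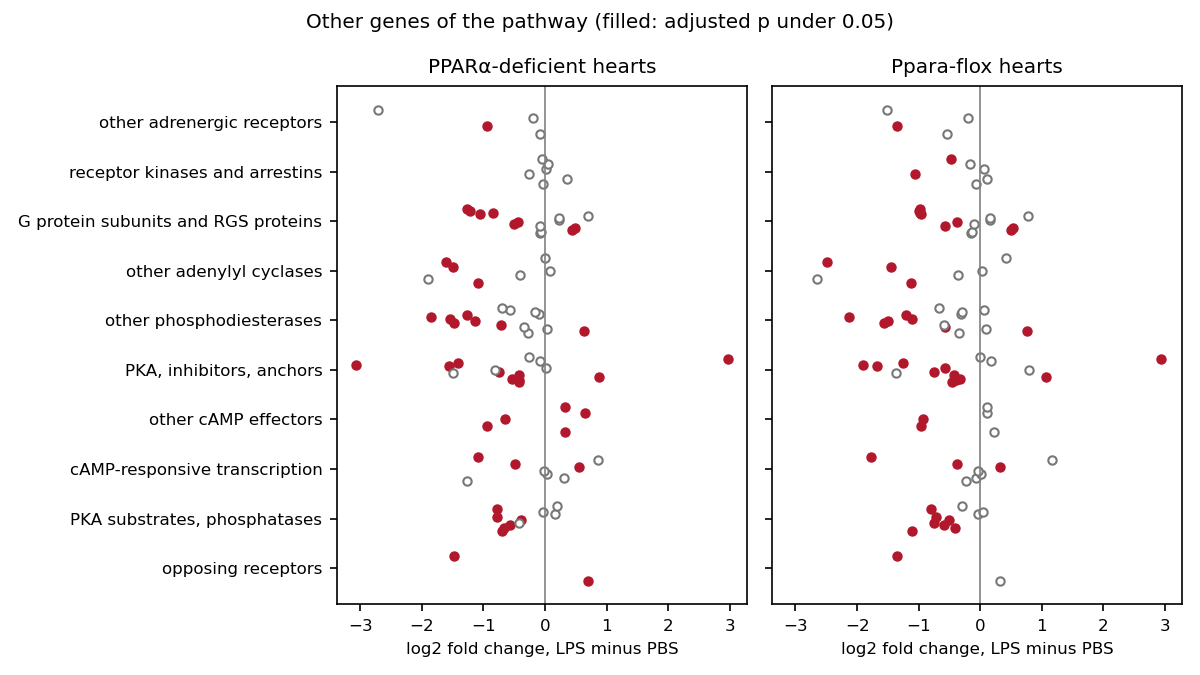
Log2 fold change, LPS minus PBS, of 85 further genes of the pathway by list in PPARα-deficient (left) and Ppara-Flox hearts (right). Each point is 1 gene, filled where the adjusted p was under 0.05. Most filled points lie below 0, with Akap12 near 3 in both genotypes.

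For each of the 9 genes the 2 genes with the most similar profile were found by the root mean square difference of log2 CPM over the 16 libraries, each gene centred on its own mean. The closest fits were Trabd2b and Palld to Adcy6 (0.10 and 0.11), and the glucose transporter gene Slc2a4 and Gpc1 to Adcy5 (0.11 and 0.13), where Adcy6 and Adcy5 themselves varied by 0.55 and 0.68 around their means. Tbc1d17 and Rab11b-ps2 were nearest to Grk5 (0.12 and 0.13), and Fdps and Hyal2 to Pde4d (0.13 and 0.14). Nav2 and Hsd17b7 were nearest to Pde3a (0.16 for each), Rgl3 and Enho to Adrb1 (0.17 and 0.21), and Ice1 and Zbed4 to Adra1a (0.22 and 0.24). Adra1b was nearest to Paqr9 (0.25), which averaged 13.1, 24.4, 37.5 and 62.3 CPM in PPARα-deficient LPS, Ppara-Flox LPS, PPARα-deficient PBS and Ppara-Flox PBS hearts, and to Efnb3 (0.33). Nearest to Pde4b were the lipid droplet gene Plin2 and Rbm3, at 0.38 each, the largest of these differences, against its own 1.13. Pde4d, Grk5, Pde3a, Adrb1, Adra1a and Adra1b varied by 0.21, 0.30, 0.31, 0.34, 0.52 and 0.80 around their own means. A small difference is therefore a less close match for the flatter of them. Plin2 averaged 157.8, 295.7, 44.4 and 44.9 CPM in the same order of groups. These are descriptions over libraries that share the treatment effect.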

How the data were processed

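Libraries came from a stranded kit, per the labels' protocols. Named without roles, per the submitters' processing notes, are GRCm38, HISAT, StringTie 1.3.3b, fastp 0.23.2 and DESeq2 1.30.1, and the counting tool, annotation and strand setting are not given in the sources used here. The authors deposited expected counts (estimated counts) for each gene symbol as whole numbers, unscaled between libraries. The value 4 occurred 12828 times against 5290 for 3 and 7264 for 5, so a read pair may count as about 4, and counting precision follows more nearly from total divided by 4 (16392284 to 18859006). Symbols turned into dates (27 lines, 0.0644% to 0.0861% of counts) were left out, and repeated symbols were summed. Coordinates and exon lengths were read from GENCODE vM21 (GRCm38), where 53543 of 55278 symbols were found, and promoters from RefSeq.

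Genes were kept by filterByExpr (18713), scaled by TMM and fitted with edgeR's quasi-likelihood model as 4 group means over 16 libraries, 12 residual degrees of freedom (R 4.3.3, edgeR 4.0.16, limma 3.58.1, DESeq2 1.42.0, Python 3.11.15, matplotlib 3.10.9). Calls took a Benjamini-Hochberg adjusted p under 0.05 with no fold minimum. The model was also run on simulated counts in which far fewer genes changed than with LPS here. That run does not bear on the LPS comparisons, and its outcome is not reported. Members and lists were chosen with earlier results of these data known. Named were every member in each comparison, from each pathway list up to 2 called genes with the smallest adjusted p per LPS comparison and every called gene between genotypes, and the 2 genes nearest to each member, of those averaging at least 2 on the log2 CPM scale. Alternatives were other scalings, filters, thresholds and tools, counts divided by 4, the 8 libraries compared, the replicate number and leaving out each library. The averaged deficiency effect, the PBS number series and leaving out pairs of LPS libraries were added after seeing the data. Nothing in the labels says that replicates of equal number share an animal or day. The labels do not say that each library is a separate animal, and p-values measure the spread between these libraries.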

Additional observations from a re-analysis of the deposited data

Results flagged for a closer look

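In 2 of the 36 sets of 4 libraries (9 genes in 4 groups) 1 library lay far from the other 3, and chance alone flags about 1 set in 20. Adcy5 was at 70.9 CPM in Ppara-Flox LPS replicate 3, against 49.0 to 51.1 CPM in the other 3 libraries. Pde4d was at 24.3 CPM in PPARα-deficient PBS replicate 2, against 16.4 to 17.7 CPM in the other 3. None of the 12 sets of family ratios was flagged.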

How the results depend on the processing

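With LPS 2 of the 9 genes were higher and 4 or 5 lower in each genotype in all 28 alternatives, and Adra1a, Adra1b, Grk5, Adcy5, Adcy6 and Pde4b were called in each of them. Between genotypes under LPS, the number higher was 1 with DESeq2 and without the LPS libraries PPARα-deficient 4 and Ppara-Flox 3 (the first pair; 0 to 1 leaving out 1 library). The number lower was 0 without that pair, 2 with limma-voom and without the LPS libraries PPARα-deficient 3 and Ppara-Flox 4 (the second pair), and 3 with DESeq2 (1 to 2 leaving out 1 library). Under PBS the number lower was 1 with DESeq2 (0 to 1 leaving out 1 library). In the average over treatments the number higher was 1 with at least 1 CPM in 8 libraries, counts divided by 4, limma-voom, DESeq2 and without the first pair (0 to 1 leaving out 1 library).

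Values that changed sign were never called. Leaving out 1 library, they ranged from -0.0037 to 0.15 for Pde3a and -0.062 to 0.19 for Pde4d (LPS in Ppara-Flox hearts), -0.13 to 0.23 for Adra1a (genotype under LPS), -0.25 to 0.12 for Adrb1 and -0.14 to 0.067 for Pde4d (genotype under PBS), -0.061 to 0.22 for Adra1b (interaction), and -0.039 to 0.14 for Adrb1 and -0.00072 to 0.13 for Pde4d (average). Pde4d was -0.048 with LPS in Ppara-Flox hearts without the first pair, and under PBS -0.00097 with the replicate block and -0.01 with limma-voom. Without the second pair the interaction was -0.011 for Adra1b and 0.0082 for Grk5. The cause of these changes was not tested.

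Libraries of equal replicate number in different groups were little correlated (24 correlations of deviations from -0.0658 to 0.0746). The most correlated library of another group had the same number in 16 of 48 cases. Such correlations cannot show whether libraries share a day. The replicate block gave 45 genes higher and 142 lower between genotypes under LPS and changed no member's call. Over all genes DESeq2 called 200 higher and 244 lower between genotypes under LPS, 48 and 135 under PBS, 161 and 280 in the average and 26 and 29 in the interaction. Fits to the 8 libraries compared gave 25 and 116 under LPS and 12 and 77 under PBS. The interaction had 3 and 1 with counts divided by 4, and 1 and 4 without the second pair. Of the 6 ratio tests with an exact permutation p of 0.0286, 2 kept that p without any 1 library (Adra1a to Adra1b between genotypes under PBS, Pde4d to Pde4b with LPS in Ppara-Flox hearts), and the other 4 reached up to 0.0857. With 4 pairs the exact test cannot go below p = 0.125. The lowest estimated count of the 9 genes was 433, fewer read pairs if a pair counts as about 4, and whether depth limits their calls was not tested.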
